A study of Mus musculus with 4 samples.

Results

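The 4 Hox clusters of the mouse genome were examined in a map of the Polycomb protein Ring1b, as 500-bp bins of 4 intervals of the mm8 assembly: chr6:52060001-52230000 for HoxA, chr11:95900001-96400000 for HoxB, chr15:102710001-102890000 for HoxC and chr2:74430001-74590000 for HoxD. The intervals hold 2020 bins (340, 1000, 360 and 320), of the 5261365 bins of the genome. In 2002 of them at least 1 read of any library was found, against 4232026 such covered bins in all, and the other bins were left out of the densities. The intervals were chosen because Ring1b reads are dense there, so the Ring1b values below describe the choice and carry no test.

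Chromatin immunoprecipitation followed by sequencing was done in V6.5 embryonic stem cells, a line from a C57BL/6 by 129 cross, with 1 library each for Ring1b, for the transcriptional repressor REST, for MCAF1 and for histone H4 trimethylated at lysine 20 (H4K20me3). The labels name no genetic change or treatment in any of the 4. Cells for the REST library had spent 1 passage without feeder cells, and those for the other 3 libraries 2 passages. With 1 library per antibody and no input library used here, antibody and library cannot be told apart, and every interval given in parentheses is a 95% interval (exact Poisson for a density, exact conditional binomial for a ratio of densities) that covers counting error only.

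Ring1b is an E3 ubiquitin ligase and a core subunit of Polycomb repressive complex 1, which places ubiquitin on histone H2A and compacts chromatin. In embryonic stem cells the Hox genes, homeobox transcription factors that set position along the body axis, are silent, and each cluster is a classical Polycomb target covered as a block rather than at single promoters. MCAF1 (ATF7IP) binds SETDB1, an enzyme that methylates histone H3 at lysine 9, and H4K20me3 is a mark best known from heterochromatin and repeats. Polycomb domains in mammals are centred on CpG islands, stretches rich in the dinucleotide CG.

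In the RefSeq annotation of assembly GRCm38.p6, used here for names and gene order only because it is not the build of the read positions, the 4 clusters hold 39 Hox genes: 11 in HoxA, 10 in HoxB, 9 in HoxC and 9 in HoxD. With rising coordinate the genes run from Hoxb13 to Hoxb1 in HoxB, from Hoxc13 to Hoxc4 in HoxC and from Hoxd13 to Hoxd1 in HoxD. The nearest protein-coding genes on either side are Skap2 and Evx1 for HoxA, Ttll6 and Skap1 for HoxB, Calcoco1 and Smug1 for HoxC, and Evx2 and Mtx2 for HoxD. Between the outer Hox genes the annotation also lists 6 microRNA genes and 24 long non-coding RNA genes. None of these genes was placed in a bin.

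The microRNAs are shown because the miR-10 and miR-196 sequences recur in different clusters, as the Hox genes themselves are paralogs, while miR-615 comes from HoxC alone. The 5 mature sequences printed, without the other arm miR-615-5p, fall into 3 seed groups, with the seed (bases 2 to 8 of the mature RNA) in capitals, 5′ to 3′, from RefSeq (GRCm38.p6). The miR-10 pair comes from HoxB and HoxD and the miR-196 group from HoxA, HoxB and HoxC.
mmu-miR-10a-5p: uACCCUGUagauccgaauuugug
mmu-miR-10b-5p: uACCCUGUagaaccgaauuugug
mmu-miR-196a-5p: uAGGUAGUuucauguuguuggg
mmu-miR-196b-5p: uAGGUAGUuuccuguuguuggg
mmu-miR-615-3p: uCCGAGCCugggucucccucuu
Counted from the 5′ base, miR-10a and miR-10b differ only at U12A and miR-196a and miR-196b only at A12C, and the identical mature miR-196a is encoded by Mir196a-1 in HoxB and by Mir196a-2 in HoxC.

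For each cluster the listed promoter with the most CG dinucleotides is printed, which for HoxC is the only one listed. Listed promoters of the other clusters with fewer CG dinucleotides are therefore not shown. The RefSeq table holds 24 start sites of 22 of the 39 Hox genes, and the 250 bases upstream of the start are given 5′ to 3′ on the gene's strand with each CG in capitals. The sequences come from chr6:52260881-52261130 (minus strand) for Hoxa13, chr11:96318017-96318266 (plus) for Hoxb4, chr15:103034145-103034394 (plus) for Hoxc4 and chr2:74667975-74668224 (plus) for Hoxd13, all in GRCm38.p6.
Hoxa13: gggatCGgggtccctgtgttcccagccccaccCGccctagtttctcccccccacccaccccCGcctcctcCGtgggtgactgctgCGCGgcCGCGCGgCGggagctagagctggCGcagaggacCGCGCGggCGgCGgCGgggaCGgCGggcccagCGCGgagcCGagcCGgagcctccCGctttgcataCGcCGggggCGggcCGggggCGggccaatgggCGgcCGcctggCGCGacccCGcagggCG
Hoxb4: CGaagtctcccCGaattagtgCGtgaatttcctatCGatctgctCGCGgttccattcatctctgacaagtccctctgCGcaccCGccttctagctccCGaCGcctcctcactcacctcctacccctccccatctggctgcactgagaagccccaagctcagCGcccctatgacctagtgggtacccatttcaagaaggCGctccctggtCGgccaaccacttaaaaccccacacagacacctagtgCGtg
Hoxc4: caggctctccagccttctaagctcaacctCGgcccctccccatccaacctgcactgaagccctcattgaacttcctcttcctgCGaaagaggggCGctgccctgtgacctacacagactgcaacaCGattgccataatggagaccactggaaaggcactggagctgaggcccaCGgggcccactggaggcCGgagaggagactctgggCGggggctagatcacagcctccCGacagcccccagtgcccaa
Hoxd13: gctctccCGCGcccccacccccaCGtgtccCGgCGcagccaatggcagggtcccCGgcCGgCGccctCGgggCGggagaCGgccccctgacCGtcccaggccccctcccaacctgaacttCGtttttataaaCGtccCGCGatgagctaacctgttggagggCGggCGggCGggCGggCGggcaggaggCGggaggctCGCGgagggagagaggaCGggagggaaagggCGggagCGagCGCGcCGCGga
The Hoxa13 and Hoxd13 promoters hold 35 and 31 CG dinucleotides, numbers that 2.97% and 5.19% of all 32851 promoters in the table reach. Hoxb4 has 14, reached by 29.4% of promoters, and Hoxc4 has 8, reached by 43.0%. Over the 24 Hox start sites the median was 12.5 and the range 2 to 35, against a median of 6 over the whole table, and 62.5% of the Hox entries had at least 10 CG dinucleotides, against 37.8% of all. The motif is the letters CG, which read the same on both strands.

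After repeated positions were reduced to 1 per strand, the libraries held 3083311 (Ring1b), 3129369 (REST), 11023569 (MCAF1) and 7782972 (H4K20me3) nuclear reads with 1 reported location. The mean covered bin therefore held 0.729, 0.739, 2.60 and 1.84 reads, and all densities are given as fold over that mean. A single bin with 3 reads already reads 4.12-fold for Ring1b, 4.06-fold for REST, 1.63-fold for H4K20me3 and 1.15-fold for MCAF1, so single bins of the first 2 libraries are coarse. Repeats made up 8.80% of Ring1b reads in the 4 intervals and 6.31% over the genome, and in the other 3 libraries the shares in the intervals and the genome were within 1 percentage point of each other.

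Ring1b read density was high over all 4 clusters and low in the flanks. Over the whole intervals it was 36.3-fold (35.6 to 37.1) for HoxA, 31.6-fold (30.9 to 32.3) for HoxD, 30.4-fold (29.7 to 31.0) for HoxC and 13.9-fold (13.7 to 14.2) for HoxB. The low HoxB value goes with an interval of 500 kb, against 160 to 180 kb for the others. Together the 4 intervals held 1.11% of all Ring1b reads in 0.0473% of the covered bins. Of the 2002 covered bins, 807 (40.3%) were at 10-fold or more, against 0.822% of covered bins over the genome. At 50-fold or more there were 354 bins, 8.85% of the 4001 such bins in the genome, and at 100-fold or more 116 bins, 12.1% of the 962 in the genome. The background shares at these levels were 0.0945% and 0.0227%.

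In each interval 1 stretch stood out, the Ring1b domain, defined as the longest run in which the mean over 5 bins (2.5 kb) was at least 10-fold, with runs less than 10 kb apart joined. The HoxC domain, chr15:102737001-102870000, was the widest at 133 kb. The HoxA domain, chr6:52079001-52205500, spanned 126.5 kb, the HoxB domain, chr11:96066501-96184000, 117.5 kb, and the HoxD domain, chr2:74455501-74565500, 110 kb. Ring1b density inside them lay in a narrow range, from 39.7-fold (38.9 to 40.6) in HoxC through 42.3-fold (41.3 to 43.3) in HoxB and 45.4-fold (44.3 to 46.4) in HoxD to 47.8-fold (46.8 to 48.8) in HoxA. The order of density was thus not the order of width, and the widest domain was the least dense.

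Differences between neighbours in that order were small. The HoxA domain was 1.05 (1.02 to 1.09) times as dense as HoxD and 1.20 (1.17 to 1.24) times as dense as HoxC, the largest of the 6 ratios. HoxB was 1.06 (1.03 to 1.10) times as dense as HoxC and 0.933 (0.903 to 0.964) times as dense as HoxD. All 6 ratios had counting intervals that leave out 1, but with 1 library the spread between cultures is unknown.

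**Figure D1:**
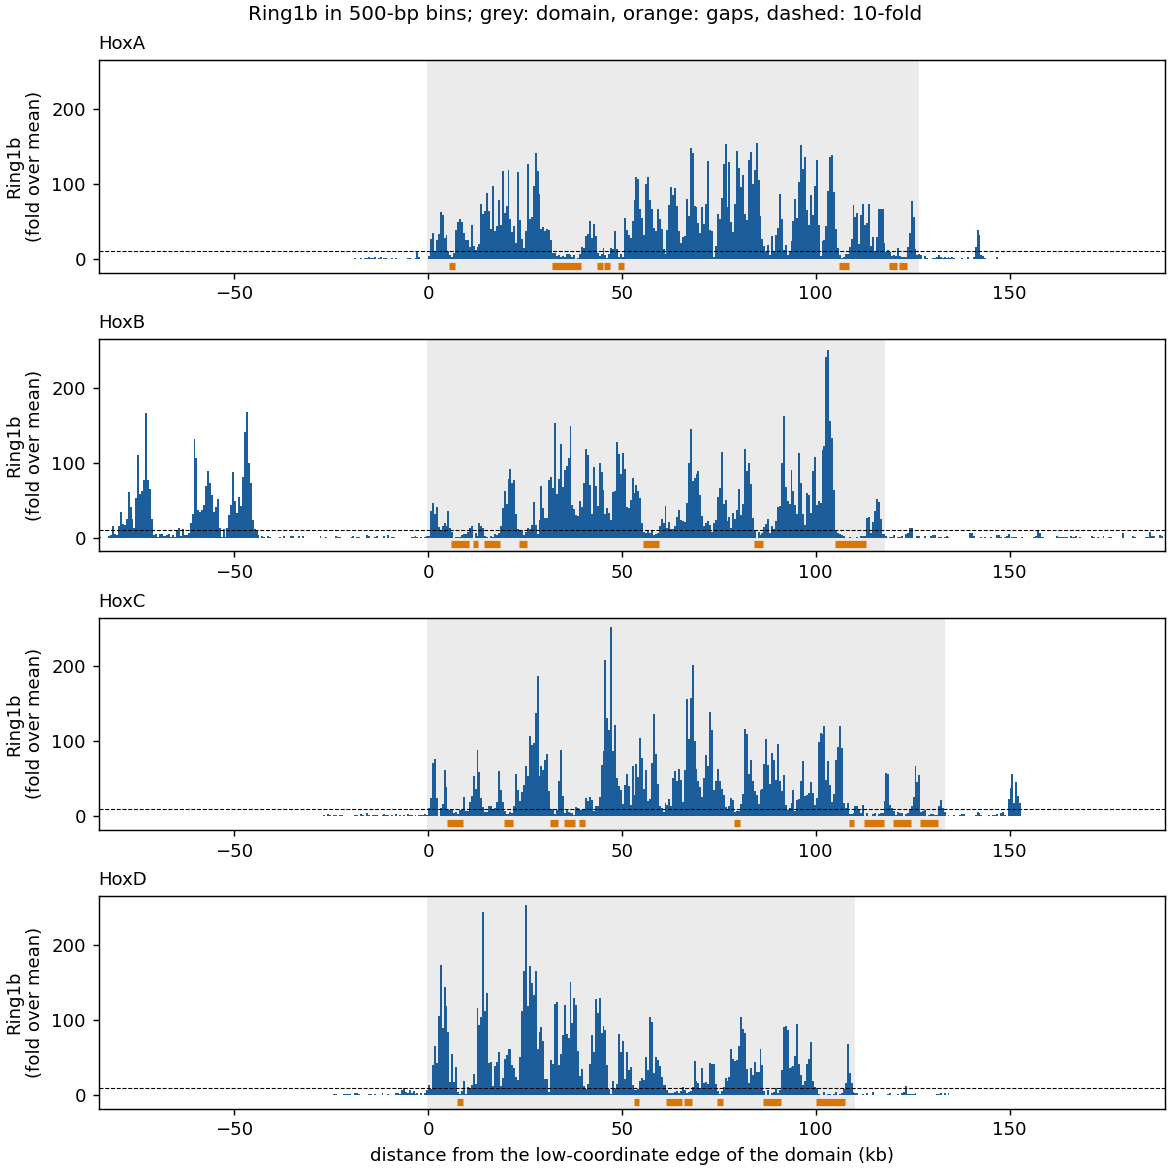
Ring1b density (vertical axis, fold over the library mean, linear from 0) in 500-bp bins of the 4 intervals against the distance in kb from the low-coordinate edge of each domain; grey shading marks the domain, orange bars the gaps described below, and the dashed line 10-fold; the outer parts of the HoxB interval are not drawn. Each domain is a series of crests separated by low bins, HoxB has a further dense stretch of 36 kb to the left of its domain, and the highest bin of HoxA, at 155-fold, is below the highest bins of the other 3.

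Within a domain Ring1b was uneven. The quartiles of single bins were 15.1, 38.4 and 68.6-fold in HoxA, 9.61, 30.2 and 63.1-fold in HoxB, 9.61, 25.4 and 58.7-fold in HoxC, and 10.6, 32.9 and 62.8-fold in HoxD. HoxA was the most evenly filled: 202 of its 253 bins (79.8%) were at 10-fold or more, against 175 of 235 (74.5%) in HoxB, 193 of 266 (72.6%) in HoxC and 165 of 220 (75%) in HoxD. The top 25% of bins by Ring1b held 54.9% of the domain's reads in HoxA, 59.9% in HoxB and 61.5% in both HoxC and HoxD. Crests, runs of bins at 50-fold or more, numbered 28, 21, 31 and 22 in HoxA, HoxB, HoxC and HoxD, and the longest measured 7, 6, 6 and 6.5 kb.

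The single densest bins showed the same contrast. In HoxD the highest bin, chr2:74480501-74481000, reached 254-fold (219 to 293), in HoxC chr15:102784001-102784500 reached 253-fold (217 to 292), and in HoxB chr11:96169501-96170000 reached 249.8-fold (215 to 289). The HoxA maximum, chr6:52163501-52164000, was 155-fold (128 to 186), below the intervals of the other 3 although HoxA had the highest mean. The HoxB maximum lay 14 kb from the high-coordinate edge of its domain, and those of HoxD, HoxA and HoxC 25, 41.5 and 47 kb from the nearer edge.

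By the same 10-fold rule, 3 further Ring1b stretches lay outside the domains in the intervals, and with 5-fold required HoxB had 2 more, of 2 kb each. The largest was in HoxB, at chr11:95986001-96022000, a stretch of 36 kb with 39.9-fold (38.2 to 41.6) Ring1b, hardly below the HoxB domain itself. Of its 72 bins 52 were at 10-fold or more (72.2%, against 74.5% in the domain), and its highest bin was at 167-fold, below the 249.8-fold of the domain. The 44.5 kb between the 2, chr11:96022001-96066500, had 63 reads, 1.01-fold (0.773 to 1.29), and no bin above 9.61-fold. It is background knowledge that Hoxb13 lies at a distance from the rest of the HoxB genes, at the low-coordinate end of the cluster, but whether it lies in the 36-kb stretch was not analysed here. HoxA had a stretch of 2.5 kb, chr6:52219501-52222000, at 18.9-fold (14.7 to 24.0), 14 kb beyond its high-coordinate edge. HoxC had a stretch of 4 kb, chr15:102886001-102890000, at 28.3-fold (24.2 to 33.0), 16 kb beyond its high-coordinate edge, which the end of the interval truncates by 0.5 kb. The space between stretch and domain was at 1.76-fold (1.24 to 2.44) in HoxA and 1.42-fold (0.974 to 1.99) in HoxC, and HoxD had no further stretch. With these stretches left out, the flanks of the 4 domains lay between 1.19-fold (HoxC) and 1.43-fold (HoxD).

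Seen over the whole genome, width sets the clusters apart more than density does. The same rule found 3676 Ring1b stretches, of which the 4 domains were the 4 widest and the 4 with the most reads. Only they exceeded 100 kb. The widest stretch elsewhere, chr11:3031501-3098000, measured 66.5 kb, but there all 4 libraries were high (22.8-fold Ring1b, 23.3-fold REST, 29.3-fold MCAF1 and 37.4-fold H4K20me3). Among those that follow were chr18:37846501-37894500, 48 kb at only 11.7-fold Ring1b, chr7:70197501-70245000, 47.5 kb at 38.2-fold, and chr13:40712001-40756500, 44.5 kb at 55.9-fold. The stretch chr9:2999001-3038500, of 39.5 kb, was again high in all 4 libraries (23.0-fold Ring1b, 23.2-fold REST, 11.5-fold MCAF1 and 8.23-fold H4K20me3). It and the 66.5-kb stretch are among the 53 stretches outside the clusters summarised below. By mean Ring1b density among the 58 stretches of 20 kb or more, the domains ranked only 14th (HoxA), 17th (HoxD), 21st (HoxB) and 27th (HoxC), and the 36-kb HoxB stretch 26th. The 53 such stretches outside the clusters had a median of 33.0-fold with quartiles of 22.8 and 46.3-fold. The clusters were also the 4 widest when 5-fold or 20-fold was required, with 80.5 and 46.5 kb as the widest elsewhere. Width also depends on the joining distance of 10 kb, which was not varied.

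**Figure D2:**
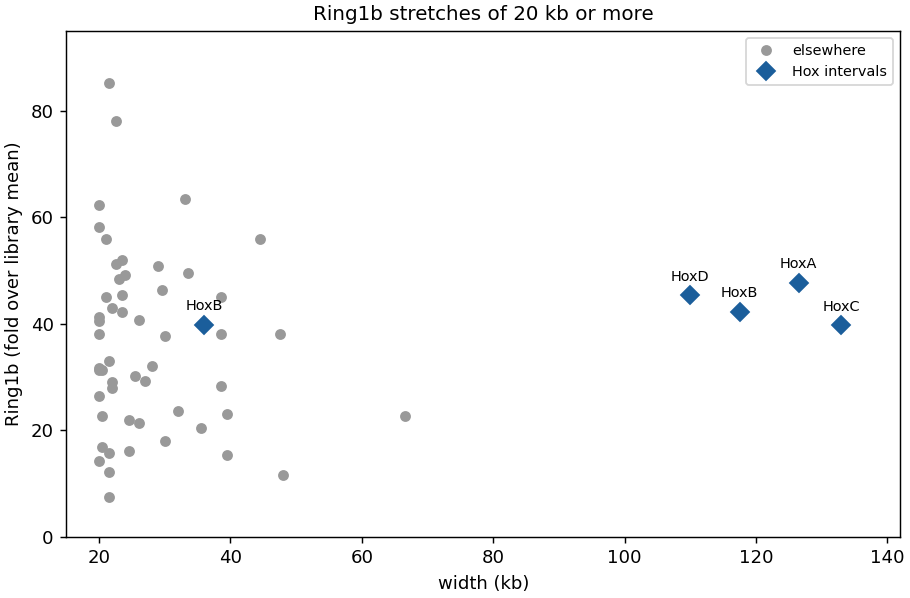
Mean Ring1b density (vertical axis, fold over the library mean) against width (horizontal axis, kb) for all 58 Ring1b stretches of 20 kb or more, with those of the Hox intervals as blue diamonds and the other 53 as grey points. The 4 domains stand at 110 to 133 kb, beyond the widest other stretch at 66.5 kb, while their densities of 39.7 to 47.8-fold lie among those of the other stretches.

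Ring1b fell outward across each domain edge, in part because the rule places edges where the 5-bin mean crosses 10-fold. How steep the edges of other Ring1b stretches are was not analysed here. The 5 kb inside an edge held between 6.45-fold (HoxC, high-coordinate edge) and 80.2-fold (HoxD, low-coordinate edge) Ring1b, and the 5 kb outside between 1.24-fold and 3.16-fold. At the low-coordinate edges, inside and outside were 31.3 and 1.65-fold in HoxA, 23.1 and 1.24-fold in HoxB, 33.8 and 1.24-fold in HoxC, and 80.2 and 3.16-fold in HoxD. At the high-coordinate edges they were 21.5 and 2.33-fold in HoxA, 25 and 2.06-fold in HoxB, 6.45 and 1.24-fold in HoxC, and 15.2 and 1.37-fold in HoxD. Over 5 kb on each side the drop was from 5.22 times (2.53 to 12.1) at the HoxC high edge to 27.3 times (14.2 to 60.5) at the HoxC low edge. Over 10 kb the extremes were other edges, 4.09 times (2.95 to 5.77) at the HoxB high edge and 28.7 times (17.2 to 51.7) at the HoxA low edge. A gap of 4.5 kb begins 1.5 kb inside the HoxC high edge, so the inner 5 kb there lie mostly in a gap. Which genes lie at these edges was not analysed here.

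Single bins show the scale of the edge. At the HoxC low edge the last outer bin was at 1.37-fold and the first 4 inner bins at 11, 24.7, 71.4 and 76.9-fold. At the HoxD low edge the last outer bin was at 6.86-fold and the inner bins at 13.7, 8.24, 39.8 and 65.9-fold. At the HoxA low edge the last 4 outer bins held no Ring1b read and the first 3 inner bins were at 4.12, 26.1 and 34.3-fold. At these 3 edges the first bin over 20-fold was thus the 2nd or 3rd inside, a distance which the running mean of 2.5 kb and the 500-bp bins cannot place more closely. Per the labels the sonicated chromatin was 500 bp long on average, and the gel slice taken for Ring1b held shorter fragments, 150 to 300 bp.

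**Figure D3:**
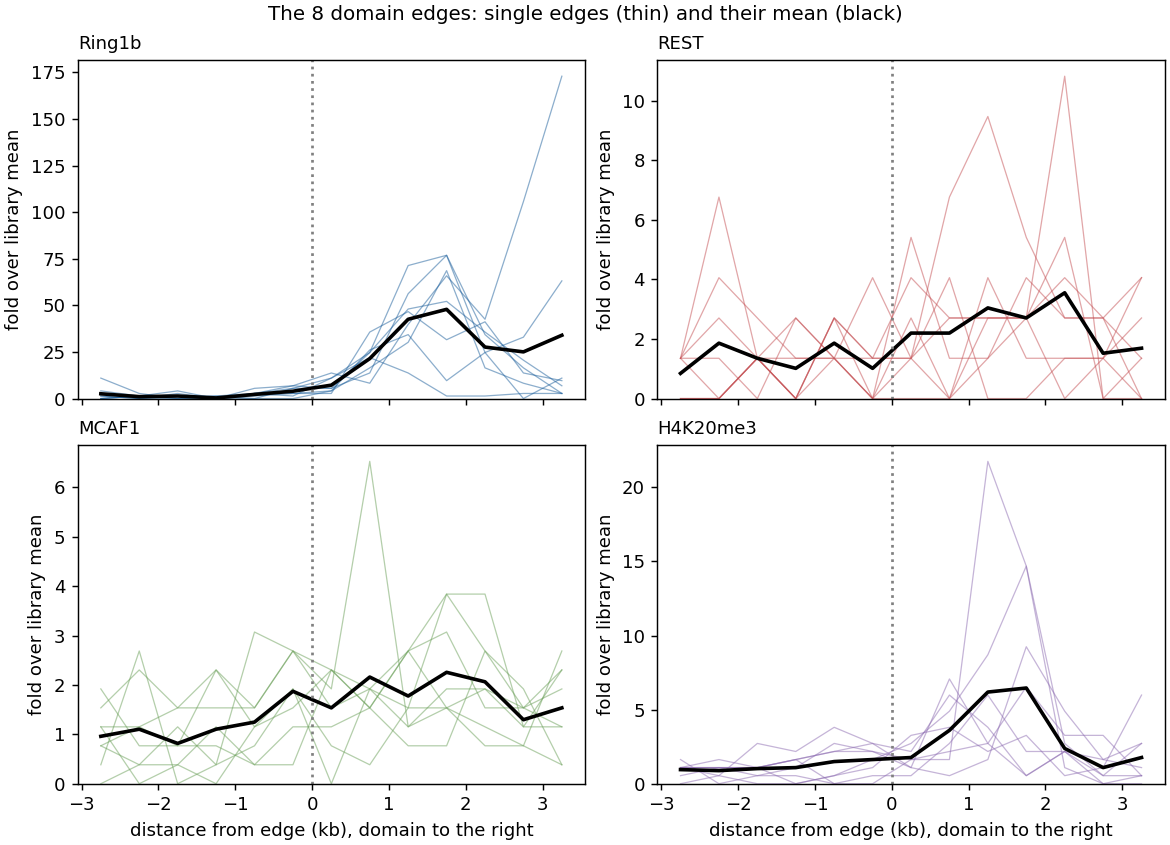
Density (fold over each library's mean, linear axes of different height) in 500-bp bins from 3 kb outside to 3.5 kb inside the 8 domain edges, with the domain to the right of the dotted line; thin lines are single edges and the black line their mean. Ring1b is low outside and high from about 1 kb inside, and REST and MCAF1 show no step of that size. The mean of H4K20me3 is highest 1 to 2 kb inside, where the HoxB low edge reaches 21.8-fold and the HoxD high edge 14.7-fold. Single edges differ: H4K20me3 peaks nearer the edge at the HoxB high and HoxC high edges and farther inside at the HoxD low edge.

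Pooled over the 4 domains, the ends held less Ring1b than the interior, which the placing of edges at 10-fold fixes in part. The outer 10 kb on either side had 22.1-fold Ring1b (21.2 to 22.9) and the interior 47.9-fold (47.4 to 48.5), a ratio of 0.460 (0.442 to 0.479). The low-coordinate end of HoxD was an exception, with 52.2-fold (48.6 to 56.1) over its outer 10 kb. For H4K20me3 the ends were at 2.33-fold and the interior at 2.53-fold, and the interval of the ratio included 1 (0.924, 0.851 to 1.002). The ratios for REST, 0.864 (0.750 to 0.993), and MCAF1, 0.813 (0.745 to 0.886), lay between.

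Inside the domains 32 gaps were found, runs of at least 3 bins (1.5 kb) each under 10-fold: 8 in HoxA, 7 in HoxB, 10 in HoxC and 7 in HoxD. They made up 15.8% of the HoxA domain, 22.6% of HoxB, 22.6% of HoxC and 20.5% of HoxD, 99 kb in all. The longest in HoxB, chr11:96171501-96179500, was 8 kb wide at 2.49-fold (1.67 to 3.57) and began 1.5 kb from the end of the cluster's densest bin. HoxD had a gap of 7.5 kb, chr2:74555501-74563000, at 2.55-fold (1.67 to 3.73), 2.5 kb from its high-coordinate edge. The longest gap of HoxA, chr6:52111001-52118500, also of 7.5 kb, lay 32 kb inside the domain and kept more Ring1b, 4.76-fold (3.55 to 6.24). After these, HoxB had gaps of 4.5 kb (chr11:96072501-96077000, 3.97-fold) and 4 kb (chr11:96081001-96085000, 3.09-fold) close to its low-coordinate edge, and HoxD gaps of 4.5 kb (chr2:74542001-74546500, 4.27-fold) and 4 kb (chr2:74517001-74521000, 4.12-fold) farther inside. The other gaps of HoxA were at most 2.5 kb wide. The HoxC domain had none over 5 kb, but 3 of 4.5 or 5 kb followed each other near its high-coordinate edge, at chr15:102849501-102854500 (2.20-fold), chr15:102857001-102861500 (4.12-fold) and chr15:102864001-102868500 (3.36-fold).

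Gaps were low but not empty, and most of their bins could be read. The gaps of the 4 domains had similar levels, 4.80-fold in HoxA, 4.30-fold in HoxB, 4.67-fold in HoxC and 3.90-fold in HoxD, against 55.8, 53.4, 50.0 and 55.8-fold in the rest of the domain. Pooled, the gaps stood at 4.42-fold (4.09 to 4.78), above the 1.33-fold (1.25 to 1.42) of the flanks without further stretches. An upper limit on Ring1b in each bin defines the gaps, so the level of Ring1b in them is set in part by the rule.

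The other 3 libraries, which did not define the gaps, were also lower in them. H4K20me3 was at 1.22-fold in gaps and 2.82-fold in the rest of the domains (ratio 0.431, 0.390 to 0.476), REST at 1.24 and 2.50-fold (0.496, 0.423 to 0.579), and MCAF1 at 1.17 and 1.87-fold (0.627, 0.574 to 0.683). Each of the 3 was lower in the gaps of every one of the 4 domains. For H4K20me3 the gap levels were 1.18, 1.30, 1.16 and 1.22-fold in HoxA, HoxB, HoxC and HoxD, against 2.81, 2.93, 2.83 and 2.72-fold outside the gaps, with no overlap between the sets.

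**Figure D4:**
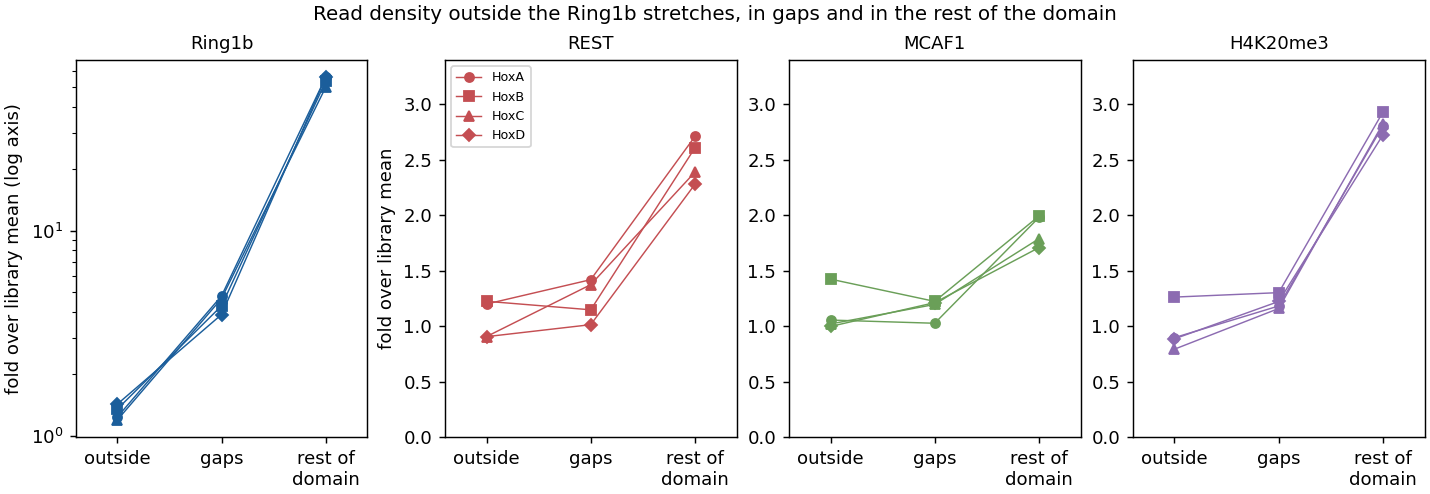
Density of each library (vertical axes, fold over the library mean, a log axis for Ring1b and linear axes from 0 for the others) outside the Ring1b stretches, in the gaps and in the rest of the domain, with 1 line per cluster. In all 4 libraries and all 4 clusters the rest of the domain is highest, and for REST, MCAF1 and H4K20me3 the gaps lie near the flanks.

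The 3 libraries were moderately higher over the domains than beside them, far less than Ring1b. Over the 4 intervals REST was at 1.73-fold (1.66 to 1.80), MCAF1 at 1.54-fold (1.51 to 1.58) and H4K20me3 at 1.86-fold (1.82 to 1.91). In the domains H4K20me3 was at 2.55, 2.56, 2.45 and 2.42-fold in HoxA, HoxB, HoxC and HoxD, nearly the same in all 4, and none of its 6 ratios between domains had an interval that leaves out 1. REST was at 2.51, 2.28, 2.16 and 2.03-fold and MCAF1 at 1.83, 1.82, 1.66 and 1.61-fold, in that order of clusters. For REST the ratios of HoxA to HoxC, 1.16 (1.02 to 1.33), and of HoxA to HoxD, 1.24 (1.07 to 1.43), left out 1, as did those of HoxA and of HoxB to HoxC and HoxD for MCAF1, from 1.10 to 1.14.

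Against the flanks without further Ring1b stretches, the domains pooled were 2.17 times (2.06 to 2.29) as dense in H4K20me3, 1.94 times (1.78 to 2.11) in REST and 1.32 times (1.26 to 1.38) in MCAF1, beside 32.8 times (30.7 to 35.0) in Ring1b. HoxB supplied 679 of the 944 flank bins, so these pooled ratios lean on it. By cluster, the H4K20me3 ratio was 2.84 (2.37 to 3.43) in HoxA, 2.03 (1.88 to 2.19) in HoxB, 3.09 (2.57 to 3.75) in HoxC and 2.73 (2.31 to 3.25) in HoxD. The MCAF1 ratio was 1.73 in HoxA, 1.28 in HoxB, 1.62 in HoxC and 1.61 in HoxD, and the REST ratio 2.09, 1.86, 2.38 and 2.24. HoxB thus had the lowest ratio in each of the 3 libraries. In the HoxB flanks MCAF1 was at 1.42-fold (1.37 to 1.48) and H4K20me3 at 1.26-fold (1.20 to 1.33), while the flanks of the other 3 had 0.998 to 1.06-fold MCAF1 and 0.793 to 0.897-fold H4K20me3. REST in the HoxB flanks, 1.22-fold, was close to that in the HoxA flanks, 1.20-fold, with 0.907 and 0.906-fold in HoxC and HoxD. The HoxB interval is also the one that reaches farthest beyond its domain.

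Few single bins were high in these libraries. At 10-fold or more, H4K20me3 had 16 of 2002 bins (0.799%, against 0.224% of bins over the genome) and REST had 9 (0.450%, against 0.218%). MCAF1 had none, which allows a share of up to 0.150%, against 0.0269% over the genome. The corresponding counts inside the domains were 12 for H4K20me3 and 6 for REST. At 5-fold or more the counts were 127 for H4K20me3 (6.34%, against 1.36%), 160 for REST (7.99%, against 2.36%) and 11 for MCAF1 (0.549%, against 0.41%). At 20-fold or more REST had 0 bins (against 0.0397%) and H4K20me3 had 1 (against 0.0172%). At 5-fold the MCAF1 share was thus near the background, and those of the other 2 above it.

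The highest H4K20me3 bins of HoxB and HoxD lay at the rim of the domain. In HoxB the bin chr11:96067501-96068000 was at 21.8-fold (15.5 to 29.6), 1 kb from the low-coordinate edge, and the next bin at 14.7-fold, with Ring1b at 46.7 and 31.6-fold. In HoxD the bin chr2:74563501-74564000 was at 14.7-fold (9.68 to 21.4), 1.5 kb from the high-coordinate edge, between the 7.5-kb gap and the flank, with Ring1b at 68.6-fold. In HoxA the highest was chr6:52121501-52122000, 19.6-fold (13.7 to 27.1), in the interior between gaps, with Ring1b at 46.7-fold, and in HoxC chr15:102749501-102750000, 17.9-fold (12.4 to 25.2), 12.5 kb from the edge. In none of the 4 clusters was it the bin with most Ring1b, where H4K20me3 was 3.26, 3.81, 7.61 and 5.98-fold in HoxA, HoxB, HoxC and HoxD. Over the 5 kb at an edge, H4K20me3 was higher inside than outside at all 8 edges, from 1.42 times (0.907 to 2.23) at the HoxB high edge to 6.13 times (2.88 to 15) at the HoxD low edge.

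The highest REST bins were not the bins with the highest Ring1b or H4K20me3, although in HoxD the highest REST bin directly adjoined the highest H4K20me3 bin. They were chr15:102759501-102760000 in HoxC at 14.9-fold (7.43 to 26.6), chr6:52155501-52156000 in HoxA at 12.2-fold (5.57 to 23.1) and chr2:74563001-74563500 in HoxD at 10.8-fold (4.67 to 21.3), from 11, 9 and 8 reads. In HoxB the value of 13.5-fold was shared by a domain bin, chr11:96115001-96115500, with Ring1b at 128-fold, and a bin outside, chr11:95961501-95962000, with Ring1b at 4.12-fold. The MCAF1 maximum of the 4 intervals was 7.68-fold (4.69 to 11.9), at chr15:102748501-102749000 in HoxC. In HoxA 3 bins were tied at 6.53-fold MCAF1, and the bin with the highest H4K20me3 was among them. The intervals of these maxima are wide and overlap between clusters, so no order among them can be read.

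Along the domains the libraries followed Ring1b, and one another, bin by bin to a weak or moderate degree. Spearman's rho between Ring1b and H4K20me3 was 0.571 in HoxA (253 bins), 0.437 in HoxB (235), 0.619 in HoxC (266) and 0.465 in HoxD (220). With REST it was 0.382 to 0.428 and with MCAF1 0.321 to 0.482. Bins of 1 library share its depth and neighbouring bins share fragments, so these describe the profiles and are not tests. Read positions equal to a Ring1b position on the same strand were about as frequent as at a distance of 20 to 100 bp: 91 against a mean of 75.9 for REST, 182 against 179 for MCAF1 and 225 against 219 for H4K20me3, of 1618, 4386 and 4470 positions in the domains.

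At equal Ring1b density, the Hox bins had less of the other 3 libraries than bins elsewhere between 5 and 100-fold Ring1b, and more where Ring1b was under 2-fold. In that lowest class, with 786 of the 2002 Hox bins, the ratio of the clusters to bins elsewhere was 1.12 (1.03 to 1.22) for REST, 1.36 (1.30 to 1.41) for MCAF1 and 1.15 (1.09 to 1.21) for H4K20me3. At 2 to 5-fold Ring1b the ratios were 1.01 (0.898 to 1.14), 0.927 (0.866 to 0.990) and 0.875 (0.807 to 0.947). At 20 to 50-fold Ring1b, REST was at 2.21-fold in the clusters and 5.72-fold elsewhere (ratio 0.386, 0.352 to 0.423), MCAF1 at 1.71 and 3.51-fold (0.486, 0.459 to 0.513) and H4K20me3 at 2.44 and 6.22-fold (0.391, 0.370 to 0.413). Bins elsewhere at 10-fold or more in all 4 libraries were left out, and the clusters held no such bin. At 100-fold or more, REST was at 4.16-fold in the clusters and 3.81-fold elsewhere (1.09, 0.976 to 1.22) and MCAF1 at 2.59 and 2.52-fold (1.03, 0.952 to 1.11), with ratio intervals that include 1. H4K20me3 was still lower in the clusters there, 4.57 against 6.44-fold (0.709, 0.664 to 0.758).

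Much of that contrast was smaller against other broad Ring1b stretches. Set against bins of the 248 stretches of 10 kb or more outside the clusters, the domain bins at 20 to 50-fold Ring1b had 0.672 times (0.608 to 0.742) the REST, 0.769 times (0.724 to 0.816) the MCAF1 and 0.629 times (0.592 to 0.667) the H4K20me3. At 100-fold or more the ratios were 1.14 (1.01 to 1.28), 1.11 (1.02 to 1.20) and 0.786 (0.733 to 0.843). H4K20me3 was thus the library that stayed lower in the Hox domains at each Ring1b level under both comparisons, from 10-fold up. The 53 stretches of 20 kb or more had a median of 2.94-fold H4K20me3 with quartiles of 2.48 and 3.63-fold, and the 4 domains, at 2.42 to 2.56-fold, lay around the lower quartile. For REST these stretches had a median of 2.42-fold with quartiles of 2.03 and 3.16-fold, and the domains were at 2.03 to 2.51-fold. For MCAF1 the median was 1.80-fold with quartiles of 1.60 and 2.07-fold, and the domains were at 1.61 to 1.83-fold.

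**Figure D5:**
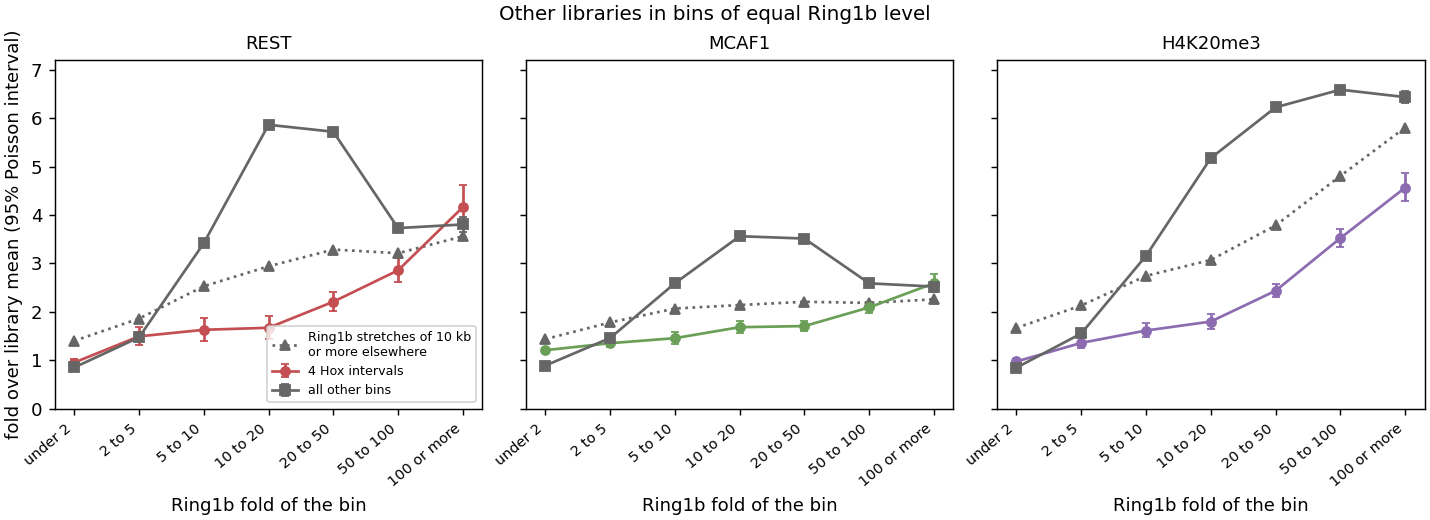
Density of REST, MCAF1 and H4K20me3 (vertical axis, fold over the library mean, with 95% Poisson intervals for the Hox intervals and for all other bins) in bins grouped by their Ring1b density (horizontal axis); coloured circles are the 4 Hox intervals, grey squares all other bins and grey triangles bins of Ring1b stretches of 10 kb or more elsewhere. All 3 libraries rise with Ring1b in the Hox intervals, and for H4K20me3 the Hox points lie below both grey series from 5 to 10-fold upwards.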

How the data were processed

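Read positions of 4 chromatin immunoprecipitation libraries were analysed, 1 each for Ring1b, REST, MCAF1 and H4K20me3. The deposited values are signed read positions, negative on the minus strand, and are neither counts per feature nor normalised. Per the file headers, reads were aligned to mm8 with options -e 70 -k 2 -m 2 -n 2 and a seed (-l) of 26 bases for Ring1b and REST and 36 for MCAF1 and H4K20me3. The submitters' processing notes name Bowtie without a version. The labels' protocols give 18 cycles of amplification and gel slices of 150 to 300 bp (Ring1b, MCAF1) or 150 to 350 bp (REST, H4K20me3).

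Reads with 1 reported location were reduced to 1 per position and strand, shifted by 75 bp in the 3′ direction and counted in 500-bp bins. Positions were taken to count from 0, and printed coordinates count from 1. Whether a minus-strand position is the leftmost or the 5′ base is not known here. Counts were divided by the library's mean over bins with a read of any library. Depth was 3083311 to 11023569 such reads per library. Repeats and copies that many reads share have few reads with 1 location, so such bins read low.

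Domains were runs with a 5-bin mean of at least 10-fold, joined when less than 10 kb apart, and gaps were runs of at least 3 bins under 10-fold. On 200 simulated domains, 100% had both edges within 1 kb and 100% of planted gaps were found. The simulated bins were drawn independently from domain bins at 10-fold or more, on a flat background. Planted gaps were all longer than the shortest gaps reported here. These shares therefore check the code and do not measure how well real edges or short gaps are placed. The rule for named regions took the domains, the 3 longest gaps of each domain, the highest bin of each library in each interval and the 10 widest stretches of the genome. Further stretches, edge bins and other single bins were chosen after their values were seen. The members and lists were chosen with earlier results of these data known. Intervals were computed with scipy 1.17.1 and numpy 2.4.6 under Python 3.11.15, and figures with matplotlib 3.10.9. Sequences and gene order came from RefSeq (GRCm38.p6), whose coordinates were not used with the reads. Alternatives covered repeats, the read shift, the mean, bin phase, the fold threshold, reads with 2 locations and the bins compared.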

Additional observations from a re-analysis of the deposited data

Results flagged for a closer look

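Reads with 2 reported locations, kept out of the densities above, were found in the clusters in every library. The 4 intervals held 997 such position entries for Ring1b, 173 for REST, 128 for MCAF1 and 83 for H4K20me3. They made up 2.59%, 5.58%, 1.39% and 1.17% of all entries in the clusters, below the 11%, 12.1%, 6.43% and 6.89% of all entries over the libraries. No control library was used here, and the counts carry no test. Where the other location of each of these reads lies was not tested.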

How the results depend on the processing

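No paired analysis was possible because each antibody has 1 library. Of 89 recomputed values, 62 moved by less than counting error or 1.5 times, 27 moved further and 0 reversed. With repeated positions included, Ring1b in the HoxA, HoxB, HoxC and HoxD intervals was 37.3, 14.3, 31.1 and 32.6-fold, with 2-location reads added 34.4, 13.3, 28.8 and 30.1-fold, and with the mean taken over all bins 44.9, 17.1, 37.6 and 39.2-fold. That mean gave REST, MCAF1 and H4K20me3 2.13, 1.90 and 2.30-fold over the 4 intervals. A threshold of 5-fold left 15 gaps in place of 32, and 160 (REST), 11 (MCAF1) and 127 (H4K20me3) bins past it. At 20-fold 0 REST bins and 1 H4K20me3 bin were past it. The ratio of H4K20me3 in the domains to the whole rest of the intervals was 1.97, became 1.87 with edges at 20-fold, and 2.17 without the further Ring1b stretches. With bins high in all 4 libraries left in, the MCAF1 ratio at 20 to 50-fold Ring1b was 0.459. Against bins of broad stretches elsewhere the ratios were 0.672 (REST), 0.769 (MCAF1) and 0.629 (H4K20me3). This comparison and the one without further stretches were added after the data were seen, and beyond the different bins, reads or means used, the cause was not tested. The HoxB domain measured 126 kb at 5-fold and 98.5 kb at 20-fold, where 2.5 kb at its low-coordinate edge, with the H4K20me3 maximum, became a separate stretch. The widths of the other 3 domains stayed within 109 to 134 kb at both thresholds. Depth limits single bins of Ring1b and REST most, where 3 reads are 4.12 and 4.06-fold.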
